A study of Homo sapiens with 4 samples.

Results

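Of 110018 H3K4me3 peaks in the consensus set, 465 lay in satellite repeats: they were annotated as intergenic (438) or intronic (27) and the repeat at the peak belonged to the class Satellite. The choice used position and repeat name alone, so no measured value entered it. The peaks carried 18 satellite names and measured 212 to 1258 bases (median 331). Another 56 peaks with a satellite name had neither an intergenic nor an intronic annotation and were kept apart. A signal is given here as TMM-scaled tags per 10 M aligned tags, where TMM is a scaling that takes most peaks as unchanged.

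H3K4me3, a mark of active promoters, was profiled by CUT-and-Tag, in which an antibody brings the transposase Tn5 to the mark so that the DNA beside it is cut and sequenced. HCC1428, an established luminal breast cancer cell line with wild type genotype, received 2.5 µM of the KDM5 inhibitor C48 or the vehicle DMSO and was collected on day 5, with 2 libraries per group made from frozen cells. The labels name these biological replicates, but separate cultures are not stated, so p-values measure the spread between libraries only, which may be technical. With 2 libraries per group, the limma and edgeR tests below pool that spread over many peaks, sums or subfamilies. Very small p-values therefore do not measure the spread of a single one. Fly spike-in nuclei were part of the assay, but spike-in counts were not used here. A higher or lower value means so against most other peaks, and a change common to all of them would go unseen. The paper reports such a change, a global rise of H3K4me3 under C48, with fewer fly reads in C48 libraries. A fall given here therefore need not be a loss of the mark. In the main test 12469 of 43712 peaks were not called, so most were called changed, unlike what TMM takes.

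Satellites are tandem repeats packed around centromeres, on the short arms of acrocentric chromosomes and beneath telomeres, where chromatin is usually heterochromatic, DNA is heavily methylated and H3K4me3 is scarce. Alpha satellite (ALR/Alpha) forms centromeres, gamma satellite (GSAT, GSATII, GSATX) lies beside them, SST1 is a macrosatellite also called NBL2 that is known for losing DNA methylation in cancers, and TAR1 is the telomere-associated repeat. KDM5 enzymes remove methyl groups from H3K4.

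The sequences of the strongest peak of each of the 6 names with most tested peaks show how different these repeats are. Each line holds the central 200 bases on the plus strand of hg38, with every CpG in capitals. The SATR1 and SATR2 stretches have 35.5% and 45.5% GC and hold 2 and 4 CpGs. The GSATII, SST1 and TAR1 stretches are GC-rich and hold 13, 16 and 17, while that of REP522 holds 3.
SATR1, chr14:22712999-22713198: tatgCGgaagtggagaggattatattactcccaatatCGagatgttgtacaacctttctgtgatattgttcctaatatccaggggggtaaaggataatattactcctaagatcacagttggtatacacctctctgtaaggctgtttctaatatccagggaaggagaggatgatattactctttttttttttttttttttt
SATR2, chr7:97958685-97958884: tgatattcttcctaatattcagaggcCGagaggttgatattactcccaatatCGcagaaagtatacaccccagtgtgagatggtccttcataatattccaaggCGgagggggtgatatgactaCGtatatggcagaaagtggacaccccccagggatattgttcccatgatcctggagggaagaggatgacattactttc
GSATII, chr12:34349117-34349316: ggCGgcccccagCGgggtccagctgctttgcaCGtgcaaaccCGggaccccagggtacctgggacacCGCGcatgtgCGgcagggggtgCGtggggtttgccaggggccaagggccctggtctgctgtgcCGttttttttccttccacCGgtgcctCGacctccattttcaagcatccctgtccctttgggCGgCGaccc
SST1, chr21:9837942-9838141: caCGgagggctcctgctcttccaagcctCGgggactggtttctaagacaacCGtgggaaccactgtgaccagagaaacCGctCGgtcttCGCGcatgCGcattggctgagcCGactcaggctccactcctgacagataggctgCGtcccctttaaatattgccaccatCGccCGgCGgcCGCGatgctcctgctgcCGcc
REP522, chr13:19117350-19117549: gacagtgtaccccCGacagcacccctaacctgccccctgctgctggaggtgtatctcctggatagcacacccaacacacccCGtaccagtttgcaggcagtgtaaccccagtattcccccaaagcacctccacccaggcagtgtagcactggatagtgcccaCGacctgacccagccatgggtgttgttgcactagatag
TAR1, chr9:41273925-41274124: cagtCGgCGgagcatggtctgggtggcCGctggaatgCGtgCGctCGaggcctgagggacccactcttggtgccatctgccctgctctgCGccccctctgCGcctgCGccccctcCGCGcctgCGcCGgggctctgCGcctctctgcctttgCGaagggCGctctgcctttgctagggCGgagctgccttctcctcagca

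The next 3 sequences belong to the peaks with the largest rise and the largest fall among called peaks with a mean of at least 20, with CpGs in capitals, and to a TAR1 peak at DDX11L2 on chromosome 2, chosen after its values were seen, in which the telomere hexamer TTAGGG is in capitals as its reverse complement CCCTAA. The region around DDX11L2 is known as the place where a pair of ancestral chromosomes joined end to end. In 300 bases the hexamer stands 17 times.
GSATII of the largest rise, chr12:34598583-34598782: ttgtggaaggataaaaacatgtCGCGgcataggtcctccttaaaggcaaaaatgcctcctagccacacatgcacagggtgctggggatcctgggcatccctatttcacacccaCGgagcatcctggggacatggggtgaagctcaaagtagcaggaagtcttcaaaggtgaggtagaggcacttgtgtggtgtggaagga
TAR1 of the largest fall, chr20:64285962-64286161: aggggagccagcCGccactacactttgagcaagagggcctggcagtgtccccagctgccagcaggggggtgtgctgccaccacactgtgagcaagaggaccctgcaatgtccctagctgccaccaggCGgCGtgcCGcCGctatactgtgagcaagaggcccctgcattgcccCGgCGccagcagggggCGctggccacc
TAR1 beside DDX11L2, chr2:113603278-113603577: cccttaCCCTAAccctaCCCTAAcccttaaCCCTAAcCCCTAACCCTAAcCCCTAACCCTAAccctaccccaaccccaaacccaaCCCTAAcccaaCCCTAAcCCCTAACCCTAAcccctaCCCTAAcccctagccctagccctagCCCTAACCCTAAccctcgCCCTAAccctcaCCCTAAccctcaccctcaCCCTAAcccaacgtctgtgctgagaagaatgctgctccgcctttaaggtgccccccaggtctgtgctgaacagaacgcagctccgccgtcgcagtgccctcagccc

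The libraries held 58.4 and 72.7 M aligned tags in C48 cells and 88.4 and 64.6 M in DMSO cells, of which 64.0% to 66.3% lay in consensus peaks. Among the luminal markers, 6 of 7 genes had a peak within 1 kb of their start, at signals up to 1357, and GATA3 had none. None of the 4 blood and immune markers or the 2 endothelial markers had one. Low signal limits the satellites: 26 of the 465 peaks had no tag in any of the 4 libraries, and 172 were called as a peak in none of them. A mean signal of at least 5 as deposited was required for testing, which 244 satellite peaks passed and 221 did not.

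Satellite peaks rose more often than they fell. In limma, at an adjusted p under 0.05, 167 of the 244 tested satellite peaks were higher in C48 cells (68.4%), where 37.3% of all 43712 tested peaks were, and 17 were lower (6.97%), where 34.2% of all tested peaks were. The other 60 were not called. The median log2 fold change of the 244 was 0.70, against 0.08 over all tested peaks. The filter on the mean favours a call for weak peaks: 45 of the 244 (18.4%; 11.6% of all tested peaks) passed it through the C48 libraries alone, with a DMSO mean under 5, and could hardly be called in any other direction than higher, as 37 of them were. Another 3 passed through the DMSO libraries alone, of which 2 were called lower. Over all tested peaks, 3897 of the 5086 that passed through C48 alone were called higher. Through DMSO alone, 287 of 355 were called lower. Of the 196 satellite peaks with a mean of at least 5 in both groups, 130 were higher and 15 lower. Among all tested peaks, 12393 of 38271 such peaks were higher and 14666 lower.

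The total followed the same direction. The signal summed over the 465 peaks was 14287 and 14022 in C48 cells, against 10869 and 11166 in DMSO cells, a ratio of 1.28, and satellites took 0.252% and 0.243% of all tags in peaks in C48 cells, against 0.146% and 0.151% in DMSO cells. Both C48 libraries lay above both DMSO libraries. Either difference exceeded the spread between replicates, and an exact permutation test of 2 against 2 libraries cannot reach 0.05. The size of the ratio depended on the scaling: on the log2 scale it was 0.36 with TMM and between 0.30 and 1.12 under the other scalings.

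The caller's own decisions, made per library before any scaling of groups, can be set beside this. Of the satellite peaks, 211 and 213 were called in the C48 libraries, against 185 and 176 in the DMSO libraries. Calls over all consensus peaks were more frequent in C48 cells too, at 37462 and 37867, against 30162 and 29745 in DMSO cells, so that satellites made up 0.563% and 0.562% of called peaks in C48 cells, against 0.613% and 0.592% in DMSO cells, a slightly lower share. Calls in both C48 libraries with none in DMSO numbered 31 (6.67% of members; 5.03% of all consensus peaks), 12 of them SATR1. The reverse held for 15 (3.23% of members; 1.08% of all consensus peaks), 5 of them SATR1.

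By name, SATR1 was the largest group. Of 81 tested SATR1 peaks on 17 chromosomes or contigs, 72 rose and 9 were not called, with a median of 0.98 and a range of -0.13 to 2.05. The SATR1 peaks summed to 3184 and 3052 in C48 cells, against 1816 and 1823 in DMSO cells, which gave a log2 fold change of 0.78 ± 0.03 (SE, adjusted p = 1.40e-12, limma over the sums of all repeat names). Beside this and the other name sums stands the median of 0.53 over all 865 repeat name sums. Values in brackets after a peak or sum are its log2 fold change, C48 over DMSO, with its standard error and adjusted p. The largest rise among SATR1 peaks was at a weak one: at CLEC6A on chromosome 12, which encodes a C-type lectin, the SATR1 peak at chr12:8448382-8448658 had 19.1 and 25.3 in C48 cells, against 3.80 and 5.41 in DMSO cells, a log2 fold change of 2.05. With so low a DMSO mean it was tested on the strength of its C48 values alone, as were 25 of the 81 SATR1 peaks. Of these 25, 21 were called higher, and a rise was the call open to them. Of the 56 SATR1 peaks with a mean of at least 5 in both groups 51 were called higher, against 12393 of 38271 such peaks among all tested peaks. Another, in the intergenic interval before LINC02303 at chr14:45819005-45819286, had 60.9 and 61.6 in C48 cells, against 20.2 and 24.9 in DMSO cells (1.41 ± 0.14, adjusted p = 8.04e-13).

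The strongest SATR1 peak was an exception. At chr14:22712471-22713726, in the interval before OXA1L, which encodes a mitochondrial membrane insertase, the signal was 303 and 314 in C48 cells, against 342 and 315 in DMSO cells. The C48 values lay under the DMSO values by less than the test could call (-0.09 ± 0.06, adjusted p = 0.165). The call depended on the scaling, with a lower call from DESeq2 size factors (-0.15, adjusted p = 0.0196) and a higher one from the other 3 (0.25 to 0.66), and without DMSO replicate 2 it was called lower (-0.16, adjusted p = 0.0281). Further strong SATR1 peaks did rise: the intergenic one at chr14:51744842-51745449, nearest FRMD6, had 249 and 218 in C48 cells, against 123 and 131 in DMSO cells (0.87 ± 0.08, adjusted p = 2.66e-15). The intronic one at chr10:14983720-14984311 in MEIG1 had 153 and 144 in C48 cells, against 97.8 and 85.4 in DMSO cells (0.70 ± 0.09, adjusted p = 5.73e-10).

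The related name SATR2 rose as well. Of its 12 tested peaks 11 rose and 1 was not called, with a median of 0.92. Among the 11, 3 passed the filter through their C48 values alone, so a rise was the call open to them. The sums were 329 and 318 in C48 cells, against 169 and 167 in DMSO cells (0.94 ± 0.06, adjusted p = 4.17e-10). Its largest rise stood before PTPRR, a receptor-type tyrosine phosphatase, at chr12:70941176-70941656, with 52.1 ± 2.97 in C48 cells, against 18.8 ± 2.66 in DMSO cells (SD, n = 2 each; 1.43 ± 0.15, adjusted p = 5.70e-12). The strongest, in the intron at chr7:97958552-97959017, had 60.9 and 49.7 in C48 cells, against 26.0 and 33.8 in DMSO cells (0.87 ± 0.14, adjusted p = 3.94e-07).

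The letters of these 2 names set them apart from other members. The 9-base word ATATTACTC, searched on both strands, stood in 72 of 108 SATR1 peaks and 11 of 20 SATR2 peaks, up to 9 times in 1 peak. It stood in 0.426% of 25597 tested intronic and intergenic peaks of any kind with sequence, and 68 of those 109 peaks were satellite peaks. The word recurs in the SATR1 sequence printed above, so its presence in peaks of these names describes the repeat and is no separate finding. Median GC content was 43.9% in SATR1 and 44.8% in SATR2, against 64.2% in TAR1, 63.2% in SST1 and 61.0% in GSATII.

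Gamma satellites also rose. Of 25 tested GSATII peaks 18 rose and 1 fell, with a median of 0.89, and of 5 GSATX peaks 4 rose and 1 was not called. Among the 18 GSATII rises, 4 were of peaks that passed the filter through their C48 values alone. Both tested GSAT peaks rose, while 17 more GSAT peaks were too weak to test. GSATII summed to 1502 and 1545 in C48 cells, against 980.5 and 962 in DMSO cells (0.65 ± 0.04, adjusted p = 6.19e-11). GSATX summed to 218 and 211 in C48 cells, against 116 and 111 in DMSO cells (0.92 ± 0.07, adjusted p = 4.59e-09). GSAT summed to 99.0 and 99.2 in C48 cells, against 41.2 and 54.2 in DMSO cells (1.05 ± 0.12, adjusted p = 5.88e-07). Its larger rise, on chromosome 8 at chr8:46341991-46342626, was to 36.2 and 42.3 in C48 cells, against 11.2 and 20.1 in DMSO cells (1.33 ± 0.19, adjusted p = 1.18e-08).

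The GSATII rises were mostly those of chromosome 12. All 14 tested GSATII peaks of that chromosome had a positive fold change, 13 of them called, with a median of 1.22, whereas on chromosome 9 the 5 tested ones had a median of 0.17 with 2 called higher. The difference between chromosomes was not tested. The largest rise of all satellite peaks with a mean of at least 20 was there, at chr12:34598543-34598822, the GSATII peak whose sequence is printed above: 53.2 and 57.0 in C48 cells, against 16.1 and 15.7 in DMSO cells (1.73 ± 0.16, adjusted p = 1.12e-14). The strongest GSATII peak, at chr12:34348864-34349570, had 361 and 380 in C48 cells, against 236 and 252 in DMSO cells (0.60 ± 0.06, adjusted p = 3.42e-13). The strongest GSATX peak, at chr12:38159087-38159374 before ALG10B, had 66.7 and 67.5 in C48 cells, against 28.0 and 33.6 in DMSO cells (1.10 ± 0.13, adjusted p = 1.04e-10).

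LSAU, a GC-rich repeat of pericentromeric and acrocentric regions, was the one name with 3 or more tested peaks in which every tested peak was called higher. All 10 rose, by 0.40 to 1.22 on the log2 scale, 6 of them on chromosome 20. The sums were 1139 and 1125 in C48 cells, against 678 and 705 in DMSO cells (0.71 ± 0.04, adjusted p = 6.52e-11). The strongest, at chr20:29878043-29878670, had 336 and 311 in C48 cells, against 243 and 246 in DMSO cells (0.40 ± 0.06, adjusted p = 5.91e-08). At chr16:34135358-34135665 the values were 96.5 and 90.9 in C48 cells, against 41.6 and 38.0 in DMSO cells (1.22 ± 0.11, adjusted p = 4.71e-14).

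Among rarer names, D20S16 and ACRO1 were carried by few tags. D20S16 had 1 tested peak of 10, at chr20:48514633-48515015, with 12.6 and 8.51 in C48 cells, against 1.91 and 0.698 in DMSO cells. ACRO1, a repeat of acrocentric short arms, had 1 tested peak of 5, at chr19:44411011-44411461, with 11.5 and 8.38 in C48 cells, against 3.29 and 1.91 in DMSO cells. Their log2 fold changes were 2.35 and 1.61, but both reached the filter through their C48 values alone, so a rise was the call open to them. All 6 MSR1 peaks, members of a minisatellite family, lay on chromosome 19, where 2 of 5 tested rose, 1 of them tested through its C48 values alone. The MSR1 sums were 466 and 481 in C48 cells, against 362 and 366 in DMSO cells (0.38 ± 0.05, adjusted p = 3.68e-06), under the median of 0.53 over all repeat name sums. The strongest MSR1 peak, in the intron of MYH14, a non-muscle myosin heavy chain gene, had 226 and 251 in C48 cells, against 234 and 235 in DMSO cells, and the groups overlapped. This peak was called higher under 3 other scalings.

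**Figure D1:**
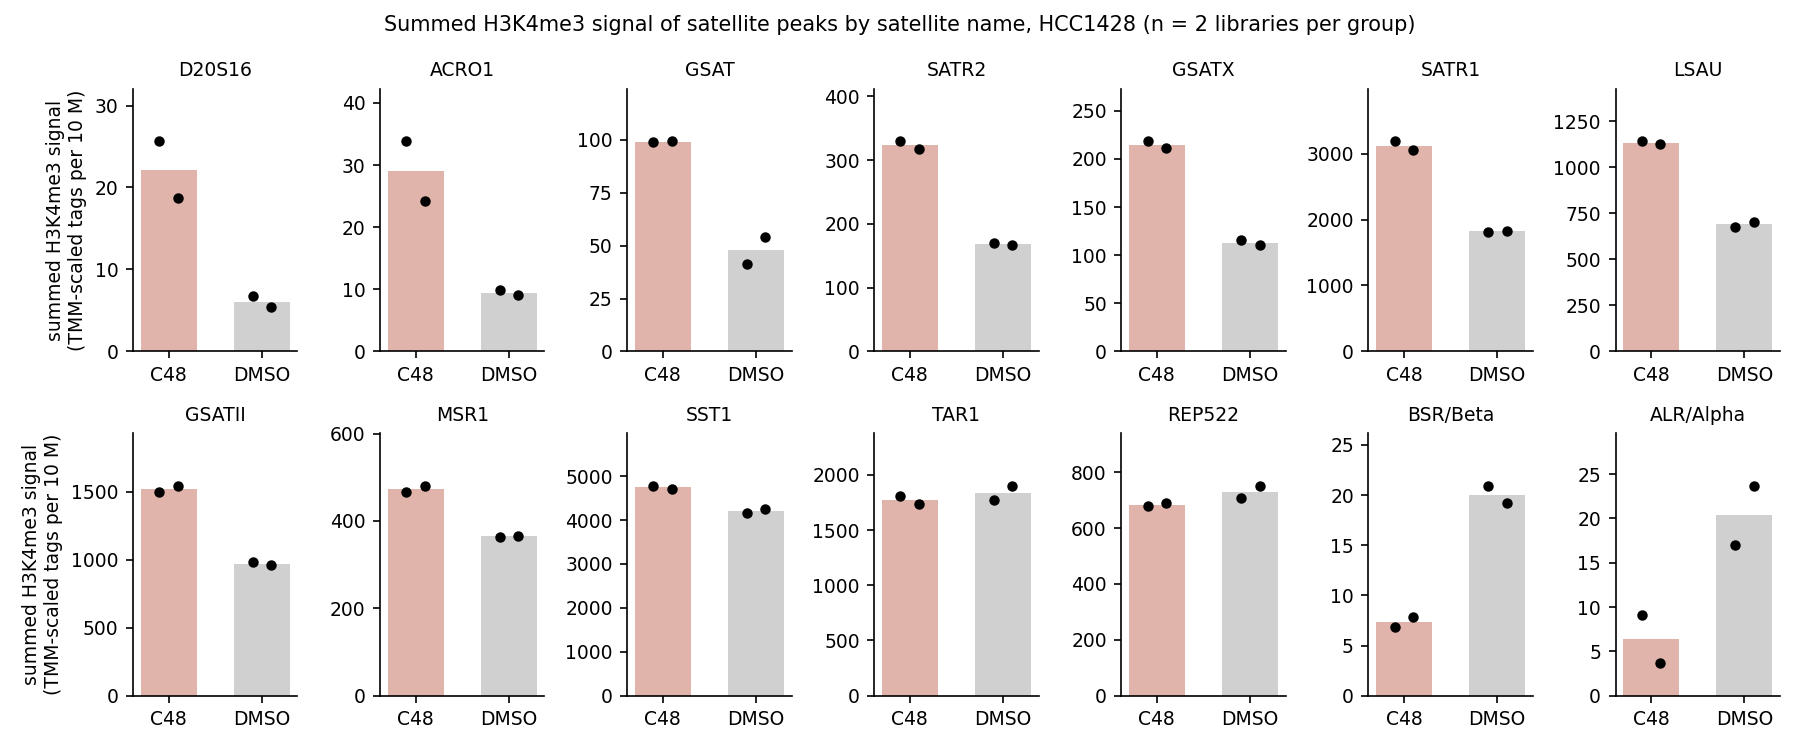
Summed H3K4me3 signal in TMM-scaled tags per 10 M for the 14 satellite names whose sum could be tested, with points for the libraries and bars for the group means (n = 2 each). The y axes start at 0 and differ between panels. In 10 panels both C48 points lie above both DMSO points and were called higher, the groups of TAR1 overlap, and both C48 points lie below both DMSO points in REP522, BSR/Beta and ALR/Alpha.

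SST1 rose in sum but held both directions. Of 54 tested SST1 peaks 33 rose, 6 fell and 15 were not called, with a median of 0.38 and a range of -1.33 to 1.81. Among them, 5 passed the filter through their C48 values alone, 4 of which were called higher. Through its DMSO values alone 1 passed, which was called lower. The sums were 4782 and 4704 in C48 cells, against 4161 and 4250 in DMSO cells (0.17 ± 0.03, adjusted p = 1.57e-05), which was under the median of 0.53 over all 865 repeat name sums. The strongest satellite peak of all was an SST1 peak at chr21:9837663-9838421, with 640 and 609 in C48 cells, against 512 and 504 in DMSO cells (0.30 ± 0.05, adjusted p = 1.43e-07). It stood in an array of 8 SST1 peaks around LINC01667 that spans 27.0 kb, in which 6 peaks rose and 2 were not called. The array summed to 1347 and 1336 in C48 cells, against 982 and 990 in DMSO cells.

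Single SST1 copies moved either way. At chr9:66270103-66270605 the signal was 152 and 166 in C48 cells, against 294 and 318 in DMSO cells (-0.94 ± 0.07, adjusted p = 2.43e-18). At chr9:61670136-61670728, on the same chromosome, it was 88.6 ± 2.25 in C48 cells, against 33.4 ± 2.19 in DMSO cells (SD, n = 2 each, 1.38 ± 0.12, adjusted p = 2.85e-15). On chromosome 7, at chr7:57654100-57654545, it was 39.9 and 37.5 in C48 cells, against 13.1 and 12.5 in DMSO cells (1.52 ± 0.18, adjusted p = 5.22e-11). At chr21:10119404-10119691, nearest BAGE, a cancer-testis antigen gene, it was 65.6 and 64.2 in C48 cells, against 117 and 115 in DMSO cells (-0.83 ± 0.10, adjusted p = 6.48e-11), which shrank to -0.084 and lost its call under scaling to ribosomal protein promoters (adjusted p = 0.458). At chr4:131742317-131742673 it was 16.7 and 16.5 in C48 cells, against 27.3 and 24.7 in DMSO cells (-0.62 ± 0.18, adjusted p = 0.00247), a call that was lost under 3 other scalings.

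TAR1 split by its place on the chromosome. Of 26 tested TAR1 peaks 8 rose, 7 fell and 11 were not called, and the sums overlapped between groups: 1808 and 1736 in C48 cells, against 1770 and 1901 in DMSO cells (-0.05 ± 0.04, adjusted p = 0.243). A limit of 200 kb from a chromosome end, chosen after the values were seen, parts them. Of the 10 TAR1 peaks within it, 5 were tested and all 5 fell, by 0.81 to 2.56 on the log2 scale, 1 of them tested through its DMSO values alone. Of the 21 tested elsewhere, 8 rose, 2 fell and 11 were not called, with a median of 0.20. All 10 end peaks together summed to 36.2 and 37.1 in C48 cells, against 115 and 147 in DMSO cells, while the other 34 summed to 1771 and 1699 in C48 cells, against 1655 and 1754 in DMSO cells.

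The largest fall of all satellite peaks lay near the end of chromosome 20. At chr20:64285824-64286299, 158 kb from the last base and close to LINC00266-1, the TAR1 peak printed above had 6.52 and 5.67 in C48 cells, against 41.8 and 39.6 in DMSO cells, 6.68 times more in DMSO cells (-2.56 ± 0.20, adjusted p = 1.42e-16). At the start of chromosome 2, at chr2:11579-11900, the values were 6.52 and 7.51 in C48 cells, against 23.7 and 37.8 in DMSO cells (-1.95 ± 0.22, adjusted p = 2.65e-11). At the end of chromosome 4, at chr4:190120389-190120764 on the side of the DUX4 arrays, they were 1.82 and 1.73 in C48 cells, against 6.34 and 12.7 in DMSO cells, a log2 fold change of -1.86. This peak reached the filter through its DMSO values alone, so a fall was the call open to it, and without DMSO replicate 2 it was not tested.

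The remaining end peaks were weaker in their fall. At the end of chromosome 1, at chr1:248944195-248944482, the values were 7.73 and 12.4 in C48 cells, against 16.2 and 28.6 in DMSO cells (-1.06 ± 0.23, adjusted p = 7.36e-05), and the fold change was -0.69 without DMSO replicate 2. At the start of chromosome 16, at chr16:10131-10686 beside DDX11L10, they were 10.5 and 7.40 in C48 cells, against 16.1 and 16.4 in DMSO cells (-0.81 ± 0.24, adjusted p = 0.00198). All 5 kept a negative fold change under each of 4 other scalings, but that of chromosome 16 lost its call under 3 of them and without C48 replicate 2 (adjusted p = 0.0793), and that of chromosome 1 under scaling to ribosomal protein promoters (adjusted p = 0.133).

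The TAR1 peak at DDX11L2 lies in the interior of chromosome 2 but holds telomere hexamers. At chr2:113603278-113603767, in an intron 195 bases from the annotated start, it had 224 and 229 in C48 cells, against 333 and 326 in DMSO cells (-0.54 ± 0.06, adjusted p = 1.91e-11), with a sign that turned to 0.21 under scaling to ribosomal protein promoters. The other interior TAR1 peak that fell was the strongest one, at chr9:41273801-41274249, with 430 and 420 in C48 cells, against 460 and 502 in DMSO cells (-0.18 ± 0.05, adjusted p = 0.00231). That call was lost without DMSO replicate 2 (adjusted p = 0.0516), and the sign turned under 3 other scalings. The interior TAR1 peak that rose most, at chr4:49519571-49519987, had 22.9 and 20.3 in C48 cells, against 8.62 and 5.58 in DMSO cells (1.51 ± 0.24, adjusted p = 1.30e-07).

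**Figure D2:**
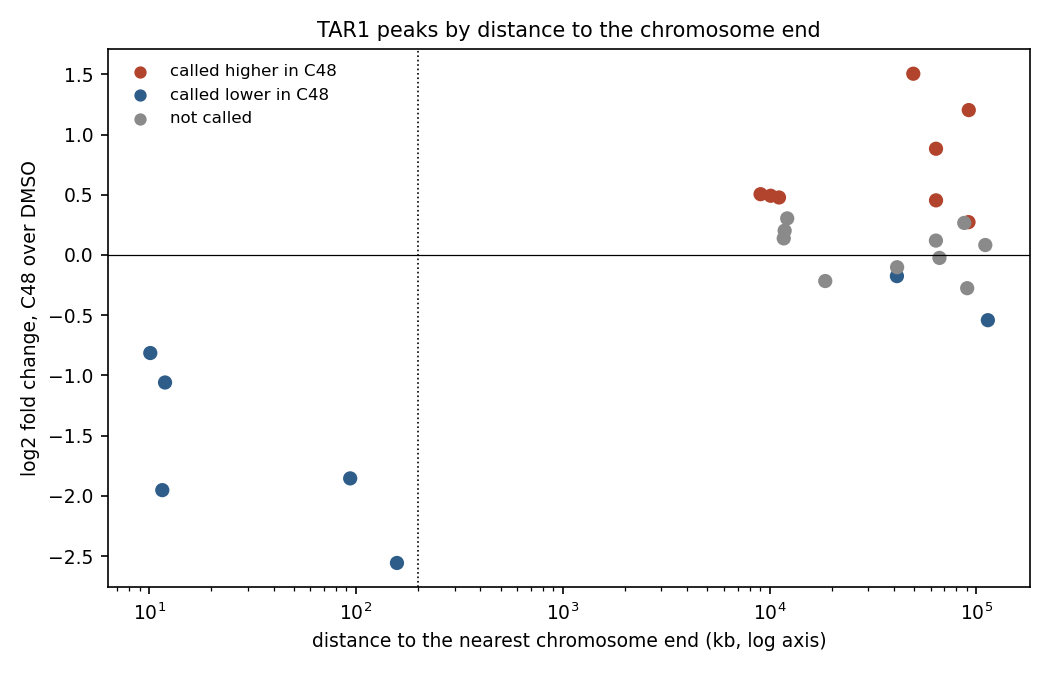
Log2 fold change, C48 over DMSO, of the tested TAR1 peaks on assembled chromosomes against the distance to the nearest chromosome end in kb on a log axis, coloured by call, with a dotted line at 200 kb. The 5 peaks left of the line lie between -2.56 and -0.81, and those right of it between -0.54 and 1.51.

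REP522, the other repeat of the telomeric satellite family, had both directions as well. Of 22 tested peaks 5 rose, 3 fell and 14 were not called, and the sums were 678 and 688 in C48 cells, against 708 and 752 in DMSO cells (-0.09 ± 0.05, adjusted p = 0.0672). Among the 22, 3 passed the filter through their C48 values alone, 2 of which were called higher. Through its DMSO values alone 1 passed, which was not called. All 3 falls had a POTE gene, of a family of primate ankyrin-domain genes in pericentromeric duplications, as the nearest gene. Of 8 REP522 peaks nearest a POTE gene 4 were tested, of which 3 fell and 1 was not called; of the other 18 tested, 5 rose and 13 were not called. This grouping was made after the values were seen and was not tested.

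Beside POTEH, at chr22:15642347-15642643, the REP522 signal was 20.5 and 22.9 in C48 cells, against 44.1 and 48.3 in DMSO cells (-1.06 ± 0.15, adjusted p = 1.93e-08). Beside POTEE, at chr2:131209467-131209871, it was 57.7 and 54.6 in C48 cells, against 90.4 and 101 in DMSO cells (-0.76 ± 0.11, adjusted p = 9.06e-09). Both calls were lost under scaling to ribosomal protein promoters. The strongest REP522 peak, in an intron of LOC107984132 at chr13:19117130-19117769, had 257 and 258 in C48 cells, against 243 and 254 in DMSO cells (0.05 ± 0.06, adjusted p = 0.472), and was called higher under 3 other scalings. The POTEH peak has 2 near-identical partners among the satellite peaks, with which it may share reads.

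The sums of alpha and beta satellite peaks, all of them weak, were lower in C48 cells. None of the 45 ALR/Alpha peaks or the 6 BSR/Beta peaks passed the signal filter, and 1 of the ALR/Alpha and 3 of the BSR/Beta peaks were called in any of the 4 libraries, where 41.5% of all consensus peaks were. The ALR/Alpha sums were 9.09 and 3.72 in C48 cells, against 17.0 and 23.7 in DMSO cells (-1.61 ± 0.31, adjusted p = 0.000177), which rest on 60 and 30 tags in C48 cells, against 134 and 136 in DMSO cells. This fold change was -1.03 without C48 replicate 2 and -2.12 without C48 replicate 1. The 6 BSR/Beta peaks summed to 6.82 and 7.88 in C48 cells, against 20.9 and 19.2 in DMSO cells (-1.34 ± 0.24, adjusted p = 6.32e-05). The core of the CENP-B box, the binding site of a centromere protein, written as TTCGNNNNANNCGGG and searched on both strands, stood in 26 of the 45 ALR/Alpha peaks, against 0.164% of tested intronic and intergenic peaks. Depth is the limit for (GAATG)n, HSAT4, SAR and (CATTC)n, whose 13 peaks were all under the filter and whose sums were not tested.

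Across names, 10 of the 14 testable satellite sums were called higher, where 65.3% of all 865 repeat name sums were, and 2 were called lower, where 7.51% were. A share of 10 in 14 is near that background. Under the 3 scalings that leave out TMM or replace it by ribosomal protein promoters, 12 of the 14 kept their direction, and TAR1 and REP522 turned positive and were called higher. With DESeq2 size factors all 14 kept theirs, and TAR1 and REP522 were called lower.

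Satellite sums were also taken by chromosome. Of the satellite sums on assembled chromosomes 1 to 22 with 3 or more tested peaks, those of chromosome 6 rose most: 367 and 335 in C48 cells, against 162 and 153 in DMSO cells (1.15 ± 0.07, adjusted p = 9.78e-50, limma over all repeat class by chromosome sums), and 15 of its 18 tested peaks were SATR1. Chromosome 11, with 7 SATR1 peaks among 8, had 318 and 312 in C48 cells, against 158 and 172 in DMSO cells (0.93 ± 0.07, adjusted p = 3.72e-35). Chromosome 12, led by GSATII, had 1777 and 1763 in C48 cells, against 994 and 996 in DMSO cells (0.83 ± 0.04, adjusted p = 1.28e-72). In this fit 66.2% of the 222 sums of any repeat class were called higher and 12.6% lower, with a median of 0.36. Its p-values rest on a spread that limma pools over all sums, so very small ones do not measure the spread of a single sum. Without each library in turn, the log2 fold change of chromosome 6 ran from 1.09 to 1.24. Those of chromosomes 11 and 12 ran from 0.87 to 0.97 and from 0.82 to 0.87.

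At the other end stood chromosomes 9 and 2. Chromosome 9 held 33 tested satellite peaks, of which 12 were SST1, and its sums of 2551 and 2580 in C48 cells, against 2554 and 2710 in DMSO cells, were not called apart (-0.04 ± 0.03, adjusted p = 0.315). Behind this sum were 14 higher, 3 lower and 16 not called. The outcome for chromosome 9 depended on the scaling. Its sum was called lower with DESeq2 size factors (-0.10, adjusted p = 0.00343) and higher under the other 3 (0.30 to 0.72). Chromosome 2, with 7 TAR1 peaks among 15 tested, had 907 and 858 in C48 cells, against 936 and 946 in DMSO cells (-0.09 ± 0.04, adjusted p = 0.0278). That call was lost when any of the 4 libraries was left out (adjusted p between 0.0615 and 0.620), and the sign turned under 3 other scalings. Its SATR1 peaks had a median of 0.38, against 1.17 on chromosome 6 and 1.03 on chromosome 12.

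**Figure D3:**
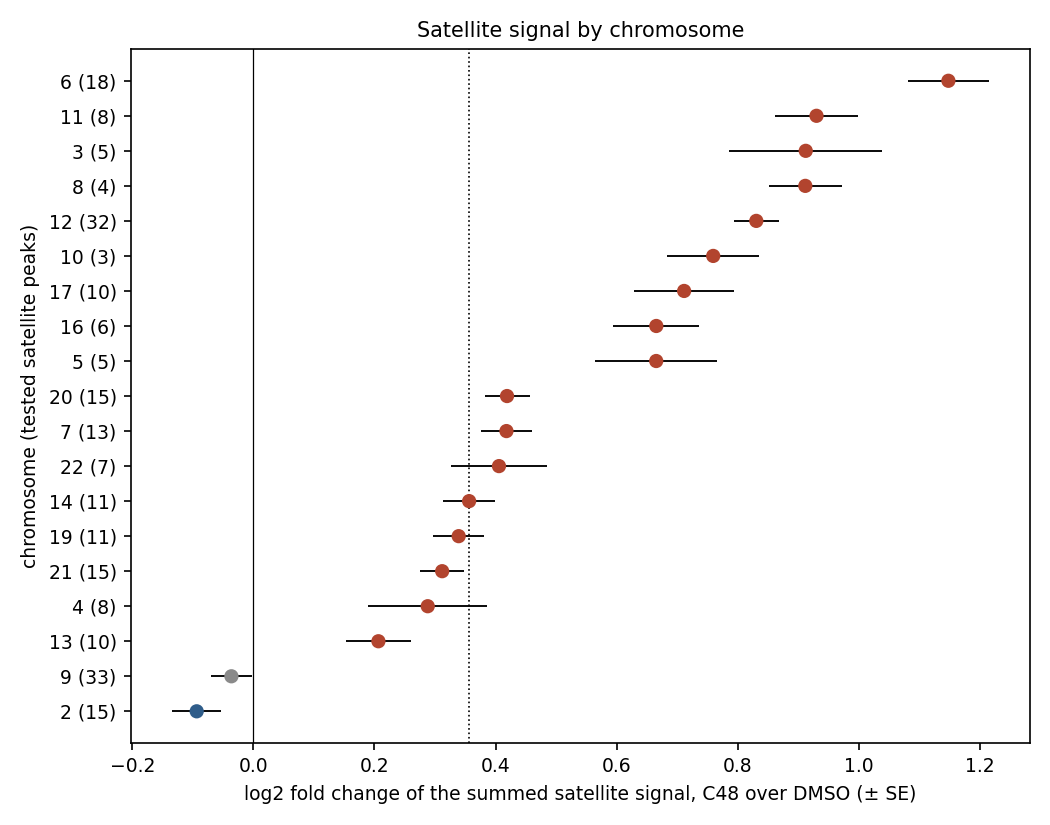
Log2 fold change with its standard error of the summed satellite signal on each chromosome that held 3 or more tested satellite peaks, C48 over DMSO, with the number tested in brackets. Red was called higher, blue lower and grey neither, and the dotted line is the median of all repeat class by chromosome sums, 0.36. Chromosome 6 stands highest at 1.15, and chromosomes 9 and 2 lie just below 0.

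Neighbouring satellite peaks can share sequence and reads, so the 244 may not be independent of each other. Peaks within 10 kb of the next formed 268 clusters, of which 146 held a tested peak: 92 held higher calls with no lower one, 13 lower calls with no higher one, and 3 both. At 95% identity over 80% of the length, 56 of the 465 had a near-identical partner among them. Among the 220 tested peaks with no such partner, 156 rose and 13 fell, with a median of 0.73.

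Signal strength belongs beside these counts, since strong peaks as a whole fell on this scale and weak ones rose. Among peaks with a mean of at least 100, 19 of 29 satellite peaks rose and 4 fell (median 0.30), against 2324 and 11613 of 16028 among all tested peaks (median -0.44). Between 50 and 100 the medians were 0.38 for satellites and 0.11 for all, between 20 and 50 they were 0.72 and 0.41, and under 10 they were 0.86 and 0.63. The satellite median was the higher one in each of the 5 ranges, and these differences were not tested. By class, 68.4% of satellite peaks rose, against 64.9% of DNA transposon peaks, 58.8% of SINE, 58.2% of LTR and 41.9% of LINE peaks in introns and intergenic sequence, and 43.4% of such peaks without a repeat. The median was 0.70 in satellites, against 0.80 in DNA transposon peaks, and the share that fell was 6.97% in satellites, against 3.25% in DNA transposon, 4.71% in LTR and 6.47% in SINE peaks, so a high share of rises and a low share of falls is not particular to satellites.

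Base composition ran with the fold change in satellites and elsewhere. Among tested satellite peaks under 45% GC 49 of 55 rose and none fell, with a median of 0.98. Of 2997 tested intronic and intergenic peaks of any kind in that range, 2046 rose and 115 fell, with a median of 0.84. From 65% GC upwards 10 of 30 satellite peaks rose and 6 fell, with a median of 0.22. Of 5342 intronic and intergenic peaks there, 1309 rose and 2731 fell, with a median of -0.22. Spearman's rho between GC content and log2 fold change was -0.50 over 243 tested satellite peaks and -0.44 over the intronic and intergenic ones; the peaks share libraries and, within a name, sequence, so this is a description. Within names it was -0.41 for GSATII, -0.31 for SST1, -0.25 for SATR1, -0.08 for TAR1 and -0.08 for REP522. The part of GC content in the differences between names was not tested.

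A second table of the same libraries, with estimated counts per repeat subfamily over all reads and not only over peaks, gave a wider view. It is not independent of the peaks, since the reads are the same. Satellite subfamilies took 2.71% and 2.67% of repeat counts in C48 cells, against 2.02% and 2.02% in DMSO cells. Of 22 tested satellite subfamilies 12 were higher, where 31.6% of all 4364 tested subfamilies were, and 10 were lower, where 33.4% were (edgeR, adjusted p under 0.05), so that none was left uncalled.

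Of the 12 subfamilies that were higher, 6kbHsap alone carried no satellite peak. SATR1 had 7062 and 6853 counts per 1 M repeat counts (CPM) in C48 cells, against 3203 and 3151 in DMSO cells (1.20 ± 0.03, adjusted p = 6.88e-15). The CPM values are not TMM-scaled, whereas the log2 fold changes of edgeR are, so their ratios differ slightly. D20S16 had 66.5 and 64.8 in C48 cells, against 21.6 and 24.1 in DMSO cells (1.60 ± 0.09, adjusted p = 2.02e-10). SATR2, GSATX, GSATII, ACRO1 and LSAU were higher by 1.14, 0.98, 0.91, 0.88 and 0.80 on the log2 scale. SST1, at 7661 and 7675 in C48 cells, against 5822 and 5795 in DMSO cells, was higher by 0.47 ± 0.02 (adjusted p = 1.14e-10). TAR1 was called higher by 0.15 ± 0.03 (adjusted p = 7.04e-05), or by 0.08 without TMM, while its sum over peaks was not called.

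The subfamilies that were lower included those of the large centromeric and pericentromeric arrays. ALR/Alpha had 929 and 783 in C48 cells, against 2248 and 2389 in DMSO cells, a mean CPM 2.71 times higher in DMSO cells (TMM-scaled log2 fold change -1.37 ± 0.05, adjusted p = 7.52e-12). HSATII, a pericentromeric human satellite, had 17.6 ± 2.36 in C48 cells, against 71.2 ± 1.28 in DMSO cells (SD, n = 2 each; -1.95 ± 0.10, adjusted p = 8.03e-11). The related (CATTC)n repeats had a log2 fold change of -1.70, SAR of -1.61, HSATI of -1.53, (GAATG)n repeats of -1.41, HSAT5 of -1.38, BSR/Beta of -0.77 and HSAT4 of -0.68. CER was lower too (-0.22 ± 0.08, adjusted p = 0.0245), a call that was lost without C48 replicate 2 (adjusted p = 0.273) or DMSO replicate 2 (adjusted p = 0.0858). ALR/Alpha and BSR/Beta were thus lower in both tables, and the 10 names whose peak sums were called higher were called higher here too. These counts include reads outside peaks. In DMSO cells ALR/Alpha had counts of 33288 and 27028, but 134 and 136 tags in peaks, so its lower counts need not mean less H3K4me3. The paper reports a larger share of H3K4me3 reads in sub-telomeric and centromeric sequence after C48, with regions defined in another way. REP522 is not among the satellite subfamilies of this table.

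**Figure D4:**
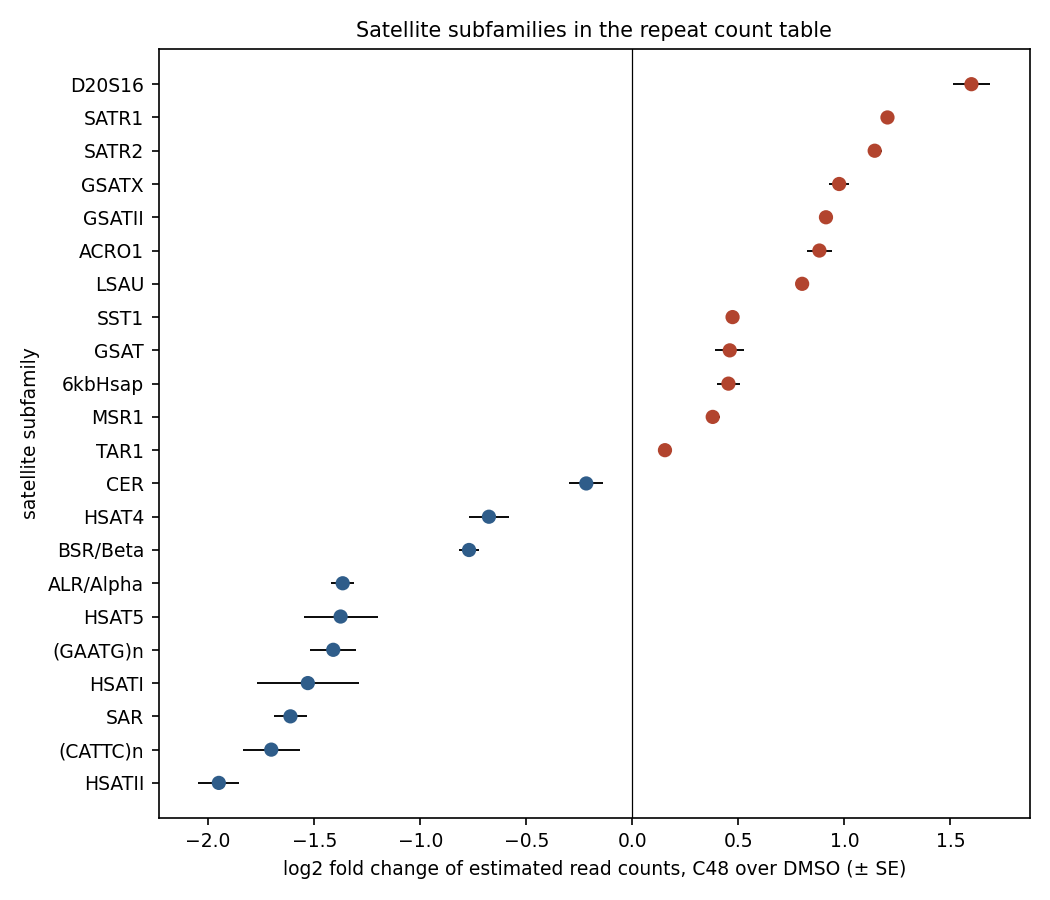
Log2 fold change with its standard error of the estimated read counts of the 22 tested satellite subfamilies, C48 over DMSO, from edgeR. Red points were called higher in C48 cells and blue points lower. D20S16 stands highest at 1.60 and HSATII lowest at -1.95, and the alpha, beta and pericentromeric human satellites lie below 0.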

How the data were processed

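CUT-and-Tag reads were aligned by the authors to hg38 with Bowtie2 2.3.4.1 (submitters' processing notes). Peaks were called with HOMER in each library and merged over 20 libraries that include other cell lines. The deposited signal is HOMER tags per 10 M aligned tags without spike-in scaling. Columns tagged GNE were matched to the C48 samples by their descriptions. Values were whole multiples of 1 tag (100% within 0.1 tags). Estimated counts of reads for each repeat subfamily were made by the authors with RepEnrich2. The treatment of reads that fit several places is, for the peak table, not given in the sources used here; peaks in near-identical copies are less certain.

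Members were found by annotation, and the members, the lists and the tests were chosen with earlier results of these data known. Peaks with a mean of at least 5 were scaled by column totals and TMM (edgeR 4.0.16) and tested with limma 3.58.1 (R 4.3.3, trend) on log2(value + 1), which understates changes of weak peaks, with Benjamini-Hochberg adjustment over all tested peaks and calls under 0.05. Sums over all peaks of a repeat name, and of a class on a chromosome, were tested in the same way. Estimated counts, whole numbers as deposited, were tested with the quasi-likelihood test of edgeR. The procedures were tested on simulated data. The named peaks are the 6 largest rises and 6 largest falls among called peaks with a mean of at least 20 and groups that do not overlap, and the strongest peak of each name with 3 or more tested peaks; others were chosen after their values were seen. Sequences and GC content were read from hg38 (pysam 0.24.0), where 2 peaks had none, and near-identical copies were found with BLAST 2.17.0. Alternatives were other scalings (deposited values, column totals, DESeq2 1.42.0 size factors, ribosomal protein promoters), pseudocounts of 0.5 and 5, other filters, edgeR on whole tags, a replicate block and leaving out each library.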

Additional observations from a re-analysis of the deposited data

Results flagged for a closer look

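The 56 satellite peaks that had neither an intergenic nor an intronic annotation entered no comparison above. None lay on an assembled chromosome. Their signals summed to 2136 and 2119 in C48 cells, against 1507 and 1550 in DMSO cells, a ratio of 1.39, with both C48 libraries above both DMSO libraries. The difference was not tested.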

How the results depend on the processing

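Scaling moved most. With the deposited values, column totals, DESeq2 size factors and ribosomal protein promoters, the median of all tested peaks shifted to 0.40, 0.44, 0.02 and 0.81, that of satellite peaks to 1.02, 1.06, 0.64 and 1.41, and the summed ratio to 0.70, 0.74, 0.30 and 1.12 on the log2 scale. Satellite peaks called lower then numbered 11, 11, 22 and 4, against 17 with TMM, and those called higher 198, 201, 160 and 224, against 167. Without the filter 30 of 439 were called lower (median 0.48), and at a mean of at least 20 10 were lower and 83 higher of 124 (median 0.50); a pseudocount of 5 gave a median of 0.55. Leaving out a library gave 132 to 163 higher, 15 to 19 lower, a median of 0.65 to 0.75 and a summed ratio of 0.34 to 0.40. Satellite name sums called lower numbered 4 with DESeq2 size factors, 5 without the filter and 0 at a mean of at least 20, where ALR/Alpha and BSR/Beta were not tested. Chromosome sums were all recomputed by alternatives chosen after seeing the data. Under deposited values, column totals and ribosomal protein promoters chromosome 2 had 0.24, 0.28 and 0.66, and chromosome 9 had 0.30, 0.34 and 0.72. Chromosome sums called lower by limma numbered 2 with DESeq2 size factors and 0 under those 3 scalings (also 0 at an unadjusted p under 0.05). They numbered 0 without any of the 4 libraries, with 1 at an unadjusted p under 0.05 without C48 replicate 1 and none in the others.

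Signs turned as follows under deposited values, column totals and ribosomal protein promoters: the sums of TAR1 to 0.29, 0.33 and 0.70 and of REP522 to 0.24, 0.28 and 0.66, the strongest TAR1 peak to 0.16, 0.20 and 0.58, and the strongest SATR1 peak to 0.25, 0.29 and 0.66. Under ribosomal protein promoters the SST1 peak of chromosome 4 turned to 0.10 and the TAR1 peak at DDX11L2 to 0.21. With DESeq2 size factors the strongest REP522 and MSR1 peaks turned to -0.013 and -0.042. Leaving out 1 library gave -0.023 to 0.13 for that MSR1 peak and -0.11 to 0.0077 for the TAR1 sum, with the sign turned without C48 replicate 2 in both.

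Replicate numbers did not pair the samples (correlation of deviations -0.03). With the replicate as a block 167 satellite peaks were higher and 17 lower, name sums kept 10 and 2, subfamilies 12 and 10, and the chromosome 2 call was lost (0 called lower, 1 at an unadjusted p under 0.05). It changed no other call among the named peaks and sums.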
